A study of Mus musculus and Homo sapiens
Mus musculus with 16 samples.

Results

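The interactions of Enc1 and Arhgef28, a pair of genes whose bodies are 645554 bp apart on mouse chromosome 13, were examined in H3K4me3 PLAC-seq of fetal forebrain. The later group was E16.5, with 2 libraries, and the earlier group was E12.5, with 2 libraries; both were frozen fetal forebrain, fixed with formaldehyde and cut with MboI, and the labels of these samples give no genotype, treatment or number of embryos. The extraction text of E12.5 replicate 1 describes adult cortex, and the library was taken as fetal forebrain from its title, tissue and stage. An interaction was taken when either of its 10 kb bins overlapped the mm10 body of Enc1 (13: 97241105 to 97253040) or of Arhgef28 (13: 97898594 to 98206675). Of 58543 bin pairs listed in any of the 4 libraries, 112 met this rule. Of these, 85 touched Enc1, 44 touched Arhgef28 and 17 touched both. All 112 enter the counts here, with no filter on low values. The members were chosen by their being listed as called interactions and with their counts at both stages known, so their numbers and counts are descriptions, and no p-value of a single contact is given.

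PLAC-seq joins DNA ends that are near each other in fixed nuclei and uses an antibody to keep the joined fragments that carry a chosen histone mark. H3K4me3 marks active and poised promoters, so a listed interaction usually has a promoter at one end, and the other end may be an enhancer, another promoter or the inside of a gene. Enc1 encodes an actin-associated protein with BTB and kelch domains that is found in neurons from early in development. Arhgef28 encodes p190RhoGEF, a guanine nucleotide exchange factor that activates the small GTPase RhoA, a regulator of the actin cytoskeleton. Between them lies a stretch without protein-coding genes that holds several long non-coding RNA (lncRNA) genes, among them Lncenc1.

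The RefSeq promoter table (GRCm38.p6, 250 bases before to 50 after a start) matched 1 of the 2 genes, Arhgef28, and not Enc1. The Arhgef28 promoter (13: 98206116 to 98206415, minus strand) lies at the higher-coordinate end of the gene, so the lower-coordinate end, where most contacts with Enc1 fell, is its 3′ end. It is shown with the promoters of 3 lncRNA genes whose bins were strong partners of Enc1 between the genes. So were the promoter bin of Rps18-ps4, not shown here, and some bins without a promoter. The 3 shown were Lncenc1 (13: 97434720 to 97435019, plus strand), 5330416C01Rik (13: 97747362 to 97747661, minus strand) and Gm41031 (13: 97826006 to 97826305, minus strand). Each is written 5′ to 3′ in lower case, with capitals for matches on either strand to the GC box GGGCGG, the E-box CAGATG or the palindromic form of the X-box bound by RFX factors.
Arhgef28: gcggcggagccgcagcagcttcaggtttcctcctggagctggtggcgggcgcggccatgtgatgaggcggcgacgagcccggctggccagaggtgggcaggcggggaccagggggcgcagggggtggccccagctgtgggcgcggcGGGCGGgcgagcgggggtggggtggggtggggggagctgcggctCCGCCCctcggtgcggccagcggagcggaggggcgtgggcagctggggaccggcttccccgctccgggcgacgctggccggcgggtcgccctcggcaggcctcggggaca
Lncenc1: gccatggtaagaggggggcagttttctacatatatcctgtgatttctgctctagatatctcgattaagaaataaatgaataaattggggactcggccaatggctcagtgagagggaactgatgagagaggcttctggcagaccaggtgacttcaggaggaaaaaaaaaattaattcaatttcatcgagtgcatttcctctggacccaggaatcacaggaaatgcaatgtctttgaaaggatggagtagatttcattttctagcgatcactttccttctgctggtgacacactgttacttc
5330416C01Rik: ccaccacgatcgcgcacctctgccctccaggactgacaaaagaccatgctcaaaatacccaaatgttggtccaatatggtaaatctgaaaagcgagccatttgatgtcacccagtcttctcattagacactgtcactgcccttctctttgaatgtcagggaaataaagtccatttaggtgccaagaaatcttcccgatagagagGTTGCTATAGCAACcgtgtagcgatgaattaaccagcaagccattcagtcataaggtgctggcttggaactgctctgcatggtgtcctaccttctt
Gm41031: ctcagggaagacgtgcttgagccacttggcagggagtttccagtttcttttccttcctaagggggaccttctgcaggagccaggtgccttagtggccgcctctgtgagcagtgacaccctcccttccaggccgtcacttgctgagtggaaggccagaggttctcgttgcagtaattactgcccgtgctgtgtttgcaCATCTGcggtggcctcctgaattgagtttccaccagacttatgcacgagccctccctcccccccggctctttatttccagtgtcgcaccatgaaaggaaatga

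The Arhgef28 promoter was rich in CpG, with 35 CpG and 79.7% G and C, and held 2 GC box matches. The lncRNA promoters were poorer in both, with 4 CpG and 42.3% in Lncenc1, 7 CpG and 46.7% in 5330416C01Rik, and 9 CpG and 56.0% in Gm41031. Over all 32851 promoters of the table the medians were 7 CpG and 52.7%. The X-box was found in 5330416C01Rik and the E-box in Gm41031, and no searched motif was found in Lncenc1. No match of one motif overlapped a match of another. Of all promoters in the table, 35.7% held the GC box, 17.2% the E-box and 0.174% the X-box. The X-box was searched for after the sequence had been seen. A match is a description of letters and not evidence of a bound factor.

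The libraries listed 35291 and 36794 interactions at E16.5, against 18413 and 16075 at E12.5, so raw numbers are set beside each library's total. In every list the lowest observed over expected count was 2.00, the spans ran from 20 to 1000 kb, and the false discovery rate (FDR) reached at most 0.009998. Sequencing depth is unknown, and a bin pair that is not listed has no known count. The labelled tissue was checked by the number of listed interactions that touch marker genes. The 9 forebrain markers all had interactions in all 4 libraries, with sums of 390 and 356 at E16.5 against 416 and 423 at E12.5. The 6 autosomal neuronal markers summed to 172 and 184 at E16.5 against 23 and 21 at E12.5, with 4 of the 6 listed in every library and Tubb3 at 0. Sums for erythroid, endothelial, microglial and meningeal markers were at most 27 per list and library, and the endothelial genes Pecam1, Tek, Kdr and Cdh5 had none. The part of this neuronal difference in the stage values of Enc1 and Arhgef28 was not tested.

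Enc1 contacted nearly the whole stretch up to Arhgef28, in one direction. The bin that holds the lower-coordinate end of Enc1 (13: 97240001 to 97250000, called the Enc1 bin here) had 64 partner bins over the 4 libraries. All 64 lay at higher coordinates, between 50 and 790 kb away. No library listed a contact of either Enc1 bin toward the lower-coordinate side. One-sided partners were common among well-connected bins: of 573 bins with at least 20 partners, 255 (44.5%) had all of them on 1 side. The number itself was high, as 34 of 41447 listed bins, the Enc1 bin included, had 64 partners or more, and the median bin had 1.

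The Enc1 bin had 61 and 62 listed interactions at E16.5, against 48 and 54 at E12.5. Among all bins of a library this placed it 11th of 28408 and 15th of 30554 at E16.5, and 6th of 15944 and 6th of 14412 at E12.5. Its partners formed an almost unbroken run. Of the 52 bins from 97370001 to 97890000, between the genes, 51 and 52 were listed at E16.5 and 40 and 46 at E12.5. Of the 8 bins from 97890001 to 97970000, at the 3′ end of Arhgef28, all 8 were listed in every library. Of the 11 bins from 97260001 to 97370000, 20 to 120 kb from Enc1, 1 was listed, in E16.5 replicate 2 and no other library, with 82 read pairs at 2.11 times the expected count.

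**Figure D1:**
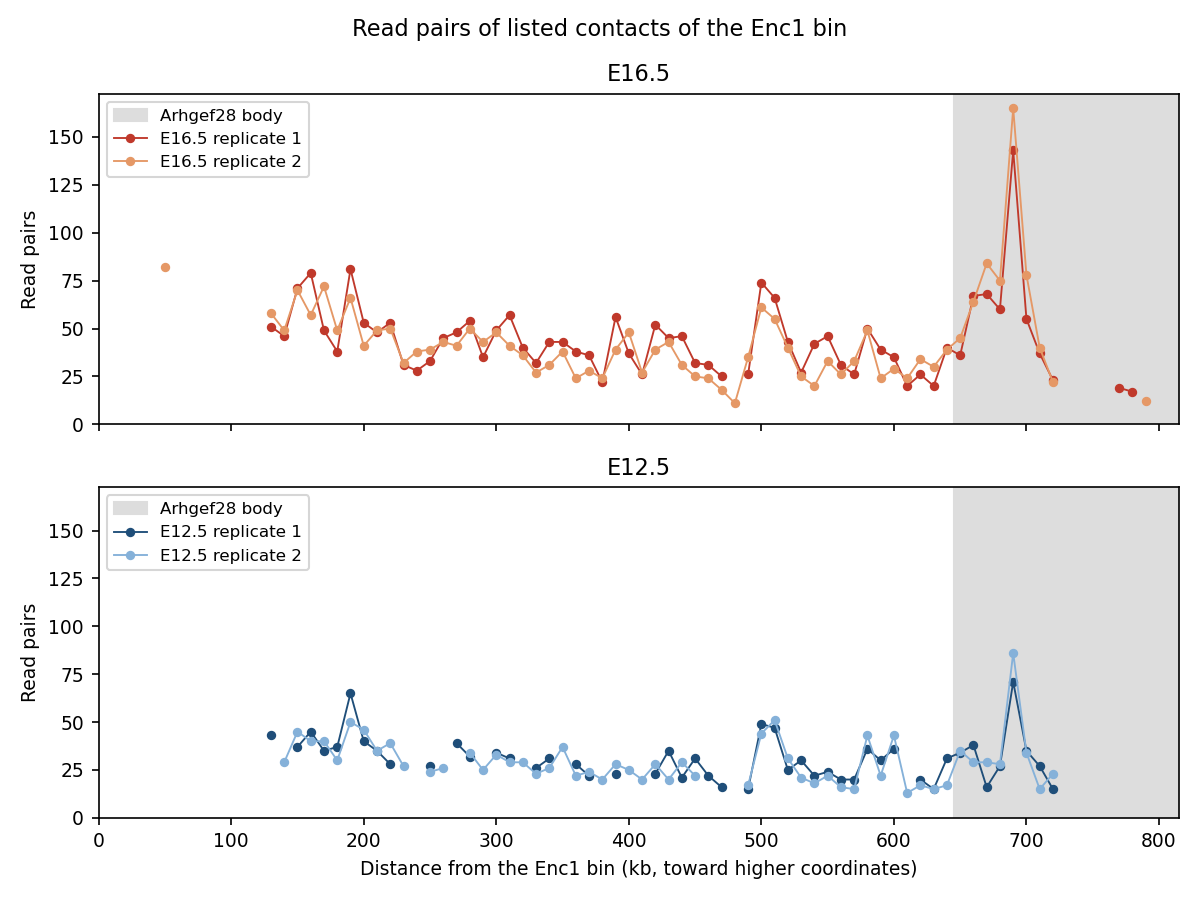
Read pairs (y axis) of each listed contact of the Enc1 bin, by distance in kb (x axis), for the 2 E16.5 libraries (upper panel) and the 2 E12.5 libraries (lower panel); a missing point was not listed, and grey marks the Arhgef28 body. The run of partners ends in a peak at 690 kb, inside Arhgef28, with 143 and 165 read pairs at E16.5 and 71 and 86 at E12.5.

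The contact with the most read pairs at the locus joined the Enc1 bin to a bin inside Arhgef28 at 690 kb (13: 97930001 to 97940000). It had 143 and 165 read pairs at E16.5, against 71 and 86 at E12.5, a mean of 154 ± 15.6 against 78.5 ± 10.6 (SD, n = 2 each). Both raw E16.5 values were above both E12.5 values, as in 50.7% of all 6875 contacts listed in all 4 libraries. Observed over expected count was 17.9 and 19.7 at E16.5 and 12.3 and 16 at E12.5. Among interactions spanning at least 600 kb it ranked 17th of 6557 and 7th of 6146 by read pairs at E16.5, and 18th of 2609 and 8th of 2183 at E12.5. The authors' clustering marked this bin pair as the summit of a broad peak in all 4 libraries, with 47 and 90 interactions in the cluster at E16.5 and 18 and 32 at E12.5. The bin lies 266 to 276 kb from the Arhgef28 start site of the promoter shown above, so it does not hold that promoter.

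Between the genes, the bins with the promoters of 3 lncRNA genes were strong partners of Enc1. So were the bin with the promoter of a further lncRNA gene, Rps18-ps4, and some bins without a promoter. Over the 4 libraries Lncenc1 had 262 read pairs, 5330416C01Rik 228 and Gm41031 178. The Rps18-ps4 promoter bin, from 97750001, had 219. The bins from 97390001 and 97400001, without a promoter, had 223 and 221. Mean observed over expected count was 4.32, 9.21 and 8.70 for the first 3 lncRNA bins and 6.57 for the Rps18-ps4 bin. It was 6.97 for the bin from 97840001, without a promoter. The bin with the Lncenc1 promoter (13: 97430001 to 97440000), 190 kb from Enc1, had 81 and 66 read pairs at E16.5 and 65 and 50 at E12.5. Lncenc1 is a lncRNA gene described in mouse embryonic stem cells, and the other lncRNA genes have no role given here. The bin with the 5330416C01Rik promoter (13: 97740001 to 97750000), at 500 kb, had 74 and 61 read pairs at E16.5 and 49 and 44 at E12.5. The bin with the Gm41031 promoter (13: 97820001 to 97830000), at 580 kb, had 50 and 49 read pairs at E16.5 and 36 and 43 at E12.5. In all 3 bins both raw E16.5 values were above both E12.5 values, the order seen in 50.7% of all 6875 contacts listed in all 4 libraries, though at Lncenc1 the lower E16.5 and the higher E12.5 library differed by a single read pair. After scaling, the log2 changes were -0.01 at Lncenc1, 0.17 at 5330416C01Rik and -0.04 at Gm41031.

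Relative to the authors' expected count, the 5330416C01Rik bin stood at 8.55 and 8.94 at E16.5 and 9.86 and 9.48 at E12.5. The Gm41031 bin stood at 7.43 and 9.69 at E16.5 and 7.09 and 10.6 at E12.5. Both exceeded the 2 neighbouring bins in all 4 libraries, and the Lncenc1 bin did so in 3. The bin from 97680001, which holds no promoter, also did so in 3. A bin could be read in this way where it and both neighbours were listed in all 4 libraries. Among 5 such bins with a RefSeq promoter, 2 were local maxima in all 4 libraries. Among 22 without one, 1 was, and that was the 690 kb bin inside Arhgef28. The bins of Rps18-ps4, next to 5330416C01Rik, and of Gm34388 hold promoters and were not local maxima in any library.

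**Figure D2:**
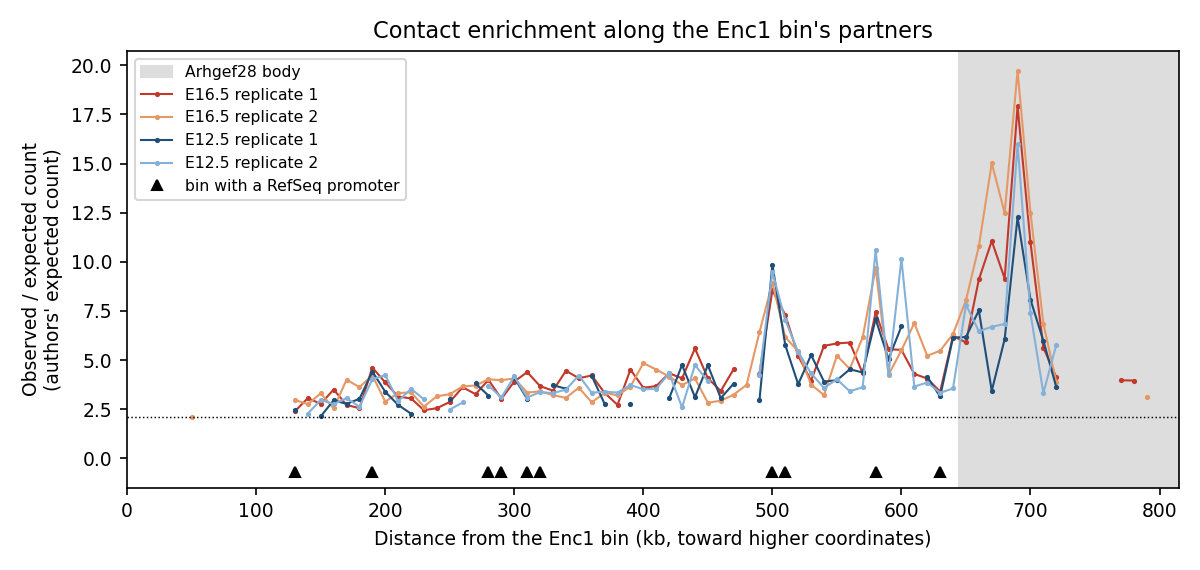
Observed over expected count (y axis, the authors' expected count) of the listed contacts of the Enc1 bin by distance in kb (x axis), 1 line per library; triangles mark bins that hold a RefSeq promoter, grey marks the Arhgef28 body and the dotted line is at 2.11, the lowest ratio of these contacts. Peaks stand at 500 and 580 kb over the lncRNA genes 5330416C01Rik and Gm41031 and, highest, at 690 kb inside Arhgef28, where the ratio was 17.9 and 19.7 at E16.5 and 12.3 and 16 at E12.5.

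The contacts with the largest log2 changes between stages were with 2 neighbouring bins at the 3′ end of Arhgef28, at 1.39 and 0.93. Only the 48 of the 112 bin pairs listed in all 4 libraries could be compared by count. Changes were taken from edgeR's quasi-likelihood fit over all 6875 such bin pairs, scaled by TMM, as E16.5 minus E12.5. Of the 48, 3 were higher at E16.5 with an adjusted p below 0.05, 0 were lower and 45 were past it in neither direction. Over all 6875 contacts 5.88% were past it and higher and 4.58% lower, so the share over the 48 was close to the background. The 3 lay side by side, from 97910001 to 97940000, and nothing is read from this count because the contacts were chosen with these counts known.

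The contact of the Enc1 bin with 97910001 to 97920000 had 68 and 84 read pairs at E16.5 and 16 and 29 at E12.5, a 2.62-fold scaled difference (log2 change 1.39, SE 0.27). The next bin, from 97920001, had 60 and 75 read pairs at E16.5 and 27 and 28 at E12.5 (1.91-fold, log2 change 0.93, SE 0.25). The 690 kb bin described above differed 1.53-fold after scaling (log2 change 0.61, SE 0.21). In all 3 both raw E16.5 values were above both E12.5 values, as in 36 of the 48 contacts and in 50.7% of all 6875. The log2 changes stayed above 0 with any single library left out. Without E12.5 replicate 1 the log2 changes of the 3, in order of coordinate, were 1.00, 0.88 and 0.45. They were 1.91, 0.99 and 0.79 without E12.5 replicate 2, and 1.18, 0.72 and 0.46 without E16.5 replicate 2. The bins from 97920001 and 97930001 were not past the threshold in DESeq2 (0.94 and 0.61). Neither were they with the expected count as an offset (0.74 and 0.42). The bin from 97930001 was also not past it without TMM (0.58) or with normalization within 10 distance bins (0.49). These calls describe contacts chosen with their counts known and are not tests of single contacts.

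**Figure D3:**
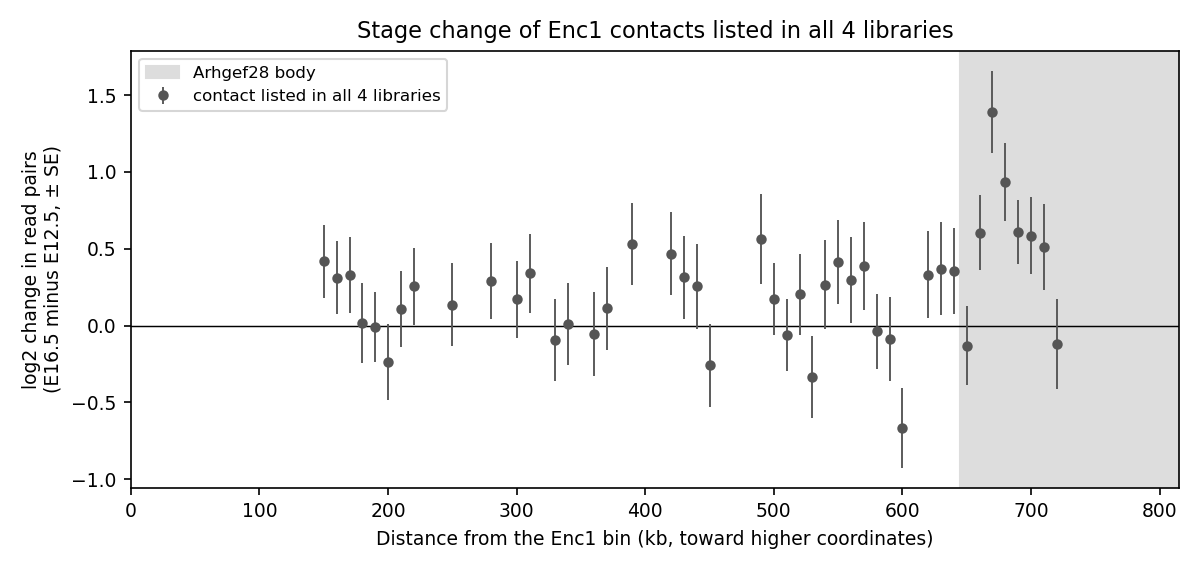
log2 change in read pairs, E16.5 minus E12.5 (y axis, bars are ± SE of the edgeR fit), of the 44 contacts of the Enc1 bin listed in all 4 libraries, by distance in kb (x axis); grey marks the Arhgef28 body. The 2 highest points, at 1.39 and 0.93, are next to each other inside Arhgef28, and the points between the genes run from -0.67 to 0.56.

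Of the other 5 contacts with the 3′ end of Arhgef28, none passed, and the log2 change was above 0 in 3. The bin from 97900001 had 67 and 64 read pairs at E16.5 and 38 and 29 at E12.5 (log2 change 0.60), and the bin from 97940001 had 55 and 78 at E16.5 and 35 and 34 at E12.5 (0.59). The bins at both edges, from 97890001 and 97960001, had log2 changes of -0.13 and -0.12. Summed over the 8 bins and scaled by TMM, read pairs were 419 and 529 at E16.5 and 294 and 326 at E12.5. The ratio of the means was 1.53, with 473.9 ± 78.1 against 310.2 ± 22.3 (SD, n = 2 each). More nuclei with the contact and more frequent contact in each nucleus cannot be told apart in bulk tissue.

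For the 36 bins between the genes listed in all 4 libraries, the scaled sums were 1401 and 1341 at E16.5 and 1238 and 1237 at E12.5, a ratio of 1.11. Their median log2 change was 0.23, from -0.67 to 0.56, against a median of 0.59 for the 8 Arhgef28 bins and -0.01 for all 6875 contacts. None of the 36 was past the threshold in either direction. The lowest of them, the bin from 97840001 at 600 kb, was the 1 contact of the 48 with both raw E16.5 counts below both E12.5 counts, 35 and 29 read pairs at E16.5 against 36 and 43 at E12.5, where 7.87% of all 6875 contacts had this order. The 2 stretches were bounded after the values were seen, as the unbroken run of partners and the Arhgef28 bins listed in all 4 libraries, and the difference between them was not tested. After scaling, 19 of the 48 contacts had both E16.5 values above both E12.5 values and 2 had both below, while over all 6875 contacts the shares were 26.8% and 27.2%. Of the 48, 45 had a bin of Enc1 as one end, so they were not independent of each other. Nothing is read from this difference in shares.

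Contacts seen at 1 stage alone were all at E16.5. Of the 112 bin pairs, 71 were listed at both stages, 41 in at least 1 E16.5 library and no E12.5 library, and 0 at E12.5 alone. Of the 41, 12 were listed in both E16.5 libraries. Over all 58543 bin pairs, 15.2% were listed in both E16.5 libraries and no E12.5 library, a larger share than 12 of 112. In both E12.5 libraries and no E16.5 library, 1.83% of all bin pairs were listed and 0 of the 112. The E16.5 lists were the longer, and no share over all bin pairs was taken to set beside the 41. The largest of the 12 was the Enc1 bin with 97480001 to 97490000 inside Lncenc1, with 28 and 38 read pairs. The second Enc1 bin (13: 97250001 to 97260000) with the 690 kb peak bin had 36 and 18. The Lncenc1 promoter bin was itself listed with the peak bin in Arhgef28, 500 kb apart, with 18 and 16 read pairs at E16.5 and not listed at E12.5.

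The second Enc1 bin, which holds the higher-coordinate end of the gene, was listed 15 and 14 times at E16.5 and 2 and 2 times at E12.5. Its contact with the Lncenc1 promoter bin was the 1 listed in all 4 libraries, with 26 and 24 read pairs at E16.5 and 28 and 19 at E12.5. With Arhgef28 this bin was listed at E16.5 alone. The bin just before Enc1 (13: 97230001 to 97240000) lies outside the rule except where its partner is in Arhgef28. It was listed with Arhgef28 9 and 7 times at E16.5 and 7 and 5 times at E12.5. Its contact with the peak bin had 56 and 41 read pairs at E16.5 and 34 and 21 at E12.5 (log2 change 0.45, SE 0.27). Both raw E16.5 values were above both E12.5 values, as in 50.7% of all 6875 contacts listed in all 4 libraries. After scaling the groups overlapped, as 0 of the 3 such Arhgef28 contacts without Enc1 kept this order.

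For Arhgef28, listed interactions gathered at the 3′ end and at a point about 170 kb from the promoter bin. Of the 32 bins of its body, 14 were touched by a listed interaction. The 8 at the 3′ end held all contacts with Enc1 at E12.5. At E16.5, where the lists were longer, contacts with Enc1 were also listed further in, but each in 1 library alone. These were the bins from 98010001 and 98020001 in replicate 1, with 19 and 17 read pairs, and from 98030001 in replicate 2, with 12. The bin from 98030001 to 98040000 was listed 4 and 9 times at E16.5 and 2 and 1 times at E12.5, mostly with bins at and beyond the Arhgef28 promoter. With 98230001 to 98240000 it had 33 and 15 read pairs at E16.5 and 14 in E12.5 replicate 1, and was not listed in E12.5 replicate 2. The bin from 98260001, which overlaps Utp15, a gene of ribosome biogenesis, and Ankra2, an ankyrin repeat gene, was its partner in replicate 2 of each stage, with 19 read pairs at E16.5 and 16 at E12.5.

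The promoter bin of Arhgef28 (13: 98200001 to 98210000), whose sequence is shown above, had 1 listed partner, the bin from 98030001, with 12 and 11 read pairs at E16.5 and none at E12.5. These were the interactions of the locus closest to the listing threshold in both E16.5 libraries, with an FDR of 0.00572 and 0.00849. At E12.5 the closest were 15 read pairs between the Enc1 bin and 97730001 (FDR 0.00718) and 8 between 97230001 and 97950001 (FDR 0.00968). Pairs just outside the threshold are not in the lists. No library listed the promoter bin with Enc1.

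**Figure D4:**
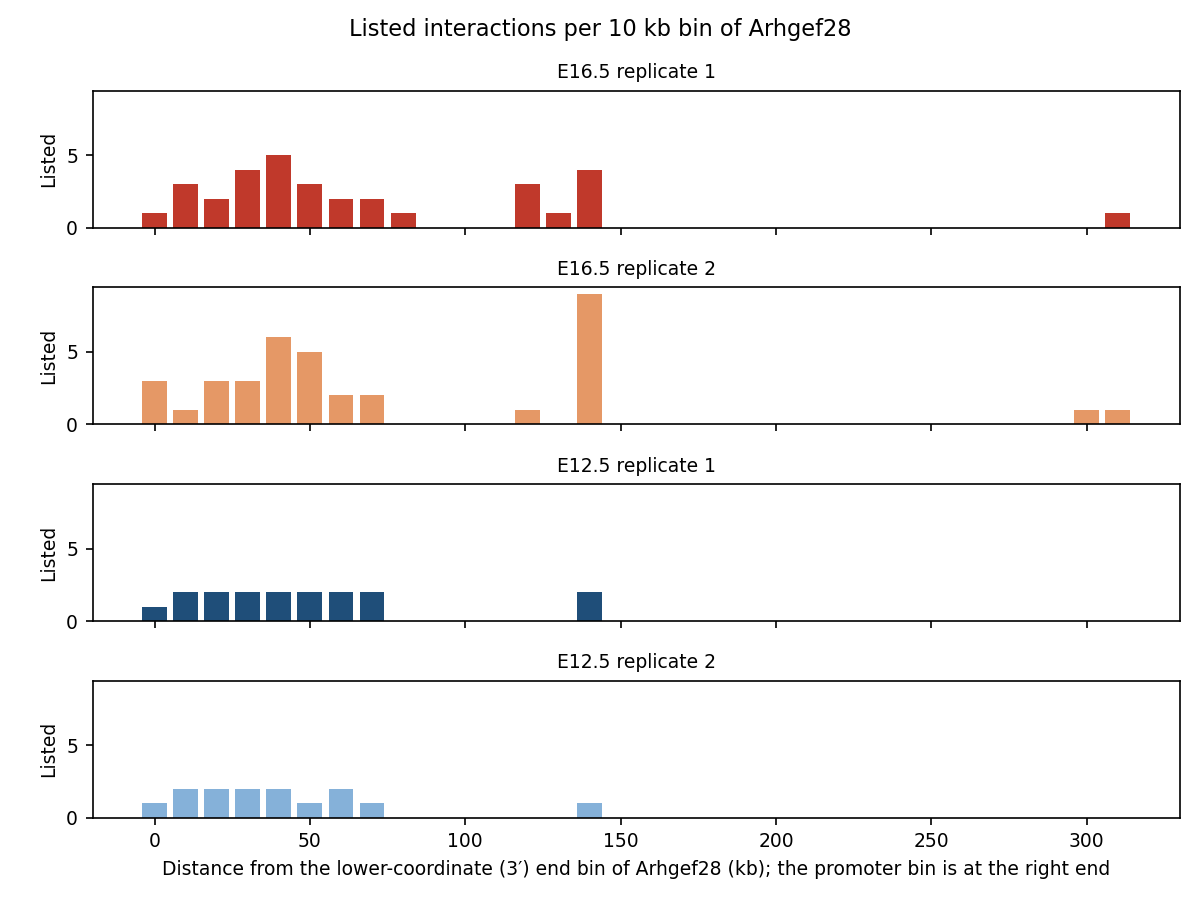
Number of listed interactions (y axis) that touch each 10 kb bin of the Arhgef28 body, from its lower-coordinate 3′ end to its promoter bin (x axis, kb), 1 panel per library with E16.5 above E12.5. The bins of the first 80 kb hold interactions in every library, the bin at 140 kb has 4 and 9 at E16.5 and 2 and 1 at E12.5, and the promoter bin has 1 in both E16.5 libraries.

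The span of the whole set, 97190001 to 98270000, was set by the outermost bins of these contacts, so none of them could cross its borders. No other listed interaction crossed either border in any library. How often other borders go uncrossed was not taken, so no domain border is read from this. The interactions that touched a member numbered 93 and 97 at E16.5 and 59 and 62 at E12.5. Their partner bins numbered 77, of which 47 held an annotated gene. Beyond the promoter of Arhgef28, the protein-coding genes in partner bins were Utp15 and Ankra2.

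By gene, Enc1 had more listed interactions at E16.5 but a smaller share of the list. It was touched by 76 and 76 interactions at E16.5 and 50 and 56 at E12.5, a mean of 76 ± 0 against 53 ± 4.24 (SD, n = 2 each). As a percent of each library's list this was 0.215% and 0.207% at E16.5 and 0.272% and 0.348% at E12.5. Neither measure overlapped between stages, and they pointed in opposite ways. For the percent, the share of all genes with this order was not taken, so nothing is read from it. The number of listed interactions was counted likewise for all 4036 autosomal protein-coding genes with a sum of at least 10. Relative to these the fitted log2 change of Enc1 was -0.32 (SE 0.17). Its sign depended on list length, since with every list cut to the 16075 interactions of lowest FDR it was 0.28. Enc1 ranked 19th of the 4036 genes by the sum over the libraries.

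Arhgef28 was touched by 31 and 35 interactions at E16.5 and 17 and 14 at E12.5, a mean of 33 ± 2.83 against 15.5 ± 2.12 (SD, n = 2 each). Its share of the list was 0.0878% and 0.0951% at E16.5 and 0.0923% and 0.0871% at E12.5, so the shares overlapped while the numbers did not. The fitted log2 change was 0.24 (SE 0.27), beside a median of 0.25 over all genes tested. Neither gene passed an adjusted p threshold of 0.05 in edgeR's fit, where 11% of genes were higher and 3.49% lower. Both raw E16.5 numbers were above both E12.5 numbers for 64.5% of the 4036 genes, as in Enc1 and Arhgef28, and below both for 3.39%. Interactions that joined the 2 genes numbered 14 and 14 at E16.5 and 8 and 8 at E12.5. As a share of the list this was 0.0397% and 0.0380% at E16.5 and 0.0434% and 0.0498% at E12.5. The number was thus higher at E16.5 and the share lower. These interactions held 598 and 652 read pairs at E16.5 against 263 and 279 at E12.5. The read pairs made up 0.0670% and 0.0715% of the library's at E16.5 and 0.0589% and 0.0688% at E12.5. There the lowest E16.5 value was below the highest E12.5 value.

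**Figure D5:**
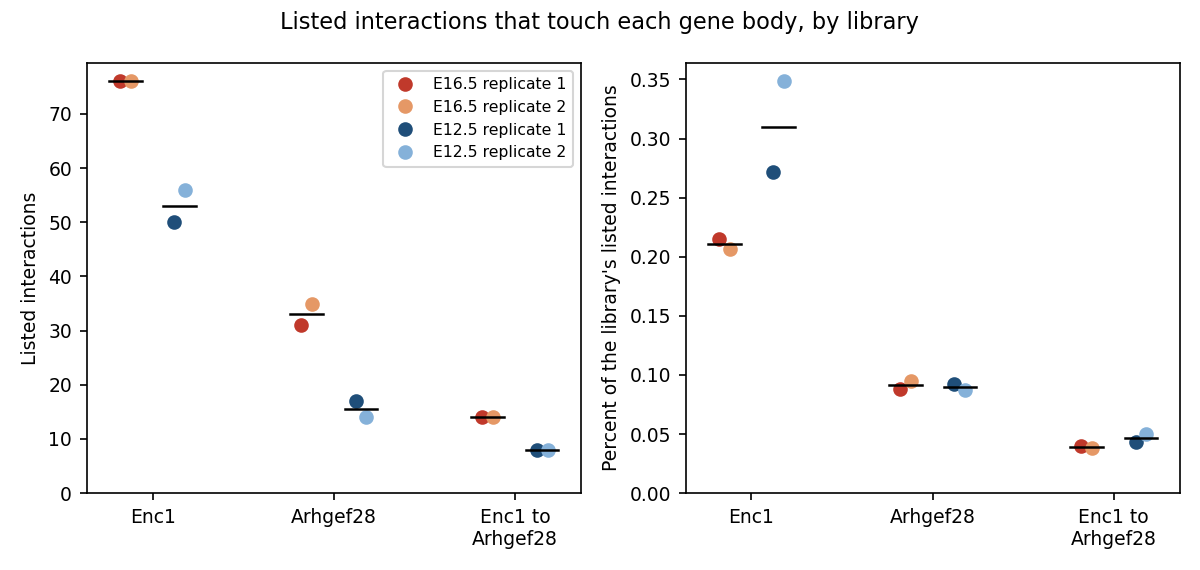
Listed interactions that touch Enc1, Arhgef28 and both (left) and the same as a percent of the library's listed interactions (right), with 1 point per library, E16.5 left of E12.5 and a line at the mean of 2 libraries. Enc1 had 76 and 76 at E16.5 against 50 and 56 at E12.5, while its share was 0.215% and 0.207% against 0.272% and 0.348%.

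The genes on other chromosomes whose scaled numbers were most like those of Enc1 over the 4 libraries were Rnd3, Maml3 and Dusp4. Likeness was the Euclidean distance between log2 numbers per 1000 listed interactions, after adding 0.5 to each number. Rnd3, a gene of an atypical small GTPase, had 67 and 78 interactions at E16.5 and 53 and 61 at E12.5 (distance 0.24). Maml3, a Notch coactivator gene, was at 0.29 and Dusp4, a phosphatase gene, at 0.31. For Arhgef28 the closest were Limch1 (0.23), Dph1 (0.31) and Socs2 (0.32).

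Most genes related to Enc1 and Arhgef28 by family had too few listed interactions to test. Of 44 autosomal BTB-kelch genes related to Enc1, 8 were tested, and 1 rose, 0 fell and 7 did not pass, with a median log2 change of 0.41 against 0.25 over all genes. Over all 4036 genes 11% rose and 3.49% fell, so 1 of 8 was near the background. The 1 was Klhl29, with 19 and 22 interactions at E16.5 and 2 and 6 at E12.5 (2.81-fold, adjusted p = 0.0347 in edgeR). Its call ended without E12.5 replicate 1 (log2 change 0.81) and without E16.5 replicate 2 (1.41). The next by p were Klhl2 (3 and 8 at E16.5, 1 and 1 at E12.5) and Klhl3 (3 and 6 at E16.5, 0 and 3 at E12.5). The groups met at 3 in Klhl3 and did not overlap in Klhl2.

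Of 61 autosomal genes of Dbl-family guanine nucleotide exchange factors related to Arhgef28, 21 were tested, of which 4 rose, 1 fell and 16 did not pass, beside 11% higher and 3.49% lower over all genes. The median log2 change was 0.67, also with the 3 genes at 0 in both E12.5 libraries set to a floor of 3 interactions per stage. Farp1, an exchange factor with a FERM domain, had 15 and 13 interactions at E16.5 and 0 and 0 at E12.5. Tiam2, a Rac exchange factor gene, had 11 and 14 at E16.5 and 0 and 0 at E12.5. Kalrn, which encodes kalirin, an exchange factor of neuronal spines, had 26 and 25 at E16.5 and 7 and 4 at E12.5 (2.56-fold, adjusted p = 0.0231 by edgeR). The gene that fell was Spata13, with 4 and 6 at E16.5 and 13 and 7 at E12.5 (log2 change -1.81, adjusted p = 0.0170 by edgeR). The Kalrn call ended without E12.5 replicate 1 (log2 change 1.70) and without E12.5 replicate 2 (1.01), and the Spata13 call without E12.5 replicate 1 (-1.41) and without E16.5 replicate 1 (-1.56). DESeq2 called Farp1 and none of Tiam2, Kalrn, Spata13 and Klhl29. With lists of equal length the calls of Kalrn (log2 change 0.89) and Klhl29 (0.80) ended, and those of Farp1, Tiam2 and Spata13 remained. With an FDR under 0.0001 the calls of Kalrn (1.92), Klhl29 (0.75) and Spata13 (-1.42) ended, and those of Farp1 and Tiam2 remained. Genes that were tested needed a sum of at least 10, so Farp1 and Tiam2, which are 2 of the 4 that rose, entered through their E16.5 numbers and had to differ.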

How the data were processed

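H3K4me3 PLAC-seq was deposited as 1 interaction list per library. The build mm10 and the tools BWA and SAMtools are named, without their roles, per the submitters' processing notes; for the interaction caller, the name is not given in the sources used here. Each row of the authors' lists holds, per the file headers, 2 bins of 10 kb, a deposited count of read pairs, an expected count (a model score), an FDR (a q-value), and the size, summit and −log10 p of the cluster. Replicates were not pooled. Coordinates are 1-based, and genes came from RefSeq GRCm38.p6, whose primary sequence is that of mm10.

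From these, listed interactions per body of 20665 autosomal protein-coding genes (4036 with a sum of at least 10) and read pairs of the 6875 bin pairs common to the 4 lists were fitted with edgeR 4.0.16 in R 4.3.3 (TMM, robust quasi-likelihood, stage as the sole term, Benjamini-Hochberg over the whole table); DESeq2 1.42.0 was an alternative. Genes or contacts that share a bin are not independent. The members, gene lists and the rule for named contacts (the 10 with most read pairs per gene, the 5 largest listed at 1 stage, and those past the threshold) were chosen with earlier results of these data known. Replicate pairs differed by more than counting noise (chi-square per degree of freedom 1.75 at E16.5 and 1.30 at E12.5). The labels do not say whether the replicates are separate litters; the p-values cover only the spread among these samples, which may be technical. The lowest exact two-sided p for 2 libraries against 2 is 0.333, so single values were not tested. The other 12 samples of the series were not analysed here, and the values of a few genes named by the rules are not reported here.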

Additional observations from a re-analysis of the deposited data

How the results depend on the processing

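With 2 libraries per stage and no sequencing depth, a bin pair that is not listed cannot be told from a weak one. The ratio of the locus's share of listed interactions, E16.5 over E12.5, was 0.747, and ran from 0.683 to 0.823 when each library was left out. It was 0.436 with clusters counted once, 0.901 with read pairs, and turned to 1.14 with lists of equal length, where the Enc1 log2 change also changed sign (0.28). The ratio of the raw number of Enc1 to Arhgef28 interactions was 1.75, where the E16.5 lists were the longer. Leaving out a library could not move it, because replicates were equal (14 and 14 at E16.5, 8 and 8 at E12.5). This ratio was 1.85 with an FDR under 0.0001, 1.38 with lists of equal length and 2 with clusters. It was 2.31 with read pairs and 1.57 with gene bodies widened by 10 kb. The cause of these moves was not tested.

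Genes higher and lower by contact number were 443 and 141. They were 70 and 27 with DESeq2, 249 and 121 when replicate number was a block, 145 and 80 with an FDR under 0.0001, 171 and 91 with lists of equal length, and 219 and 54 with gene-end bins. They were 434 and 212 with the library total without TMM, where 67.2% of the calls were higher, against 75.9% with TMM. With clusters counted once and with read pairs, edgeR called 0 in both directions (181 and 993 had an unadjusted p under 0.05). Leaving out each library gave 196 to 373 higher and 72 to 134 lower. Contacts higher and lower by strength were 404 and 315. They were 59 and 39 with DESeq2, 266 and 202 with an FDR under 0.0001, and 18 and 0 with the expected count as an offset (808 with an unadjusted p under 0.05). Leaving out each library gave 132 to 317 higher and 142 to 220 lower. The labels share replicate numbers but no litter or day, and replicate differences correlated at 0.126 between stages; with the block 532 contacts were higher and 407 lower, and the Klhl29 call ended (adjusted p = 0.0632 by edgeR).

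Of the named contacts of the Enc1 bin, 6 changed sign under some alternative. With the expected count as an offset the log2 change was 0.066 at 97430001, -0.15 at 97740001, 0.080 at 97750001 and 0.0012 at 97890001, and within distance bins 0.051 at 97430001. Leaving out each library, it ran from -0.021 to 0.63 at 97410001, from -0.16 to 0.16 at 97430001, from -0.15 to 0.030 at 97750001, from -0.34 to 0.075 at 97890001, and from -0.42 to 0.25 at 97960001. For Klhl3 by contact number it was -0.36 without E12.5 replicate 1, the 1 such fit in which it was tested. The 3 contacts past the threshold kept their direction under every alternative that tested them.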

Other observations

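Inside the span of the Enc1 and Arhgef28 contacts, 9 and 11 listed interactions at E16.5 and 11 and 2 at E12.5 touched neither gene. Of these, 9 and 10 at E16.5 and 10 and 2 at E12.5 had the bin just before Enc1 (13: 97230001 to 97240000) as one end. The span was set by the contacts of Enc1 and Arhgef28, and no other span was counted in this way. Nothing about the locus is therefore read from these numbers.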
